A study of Mus musculus with 24 samples.

Results

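The 31 genes described here make, sense, take up, store and export cholesterol. They were picked by gene name, as 8 enzymes of the steps up to squalene, 10 enzymes from squalene to cholesterol, 6 genes of sterol sensing and transcription, and 7 genes of uptake, transport, storage and efflux. All 31 were found in the table of 53465 genes, and all 31 were among the 15044 genes that passed the filter on low counts. RNA was sequenced from the intestinal epithelium of Guca2a-Venus mice, in which a bacterial artificial chromosome carries *Guca2a*, the gene of guanylin, with its coding sequence replaced by that of the yellow fluorescent protein Venus. The line came from a single founder and was crossed back to C57Bl6J mice. All mice ate standard chow, and their age was not given in the sources used here. Cells with high Venus fluorescence (positive, labelled GFP positive) and cells without fluorescence (negative, labelled GFP negative) were sorted after dead cells, debris and CD45-positive immune cells had been removed. They were taken from the top 3 cm (duodenum), the middle 3 cm (jejunum) and the bottom 3 cm (ileum) of the small intestine, and from the whole colon with the rectum (colon below). Both sorts thus came from transgenic animals, and the gate followed the *Guca2a* promoter rather than a single cell type. Each of the 8 groups had 3 libraries, 24 in all, from 3 mice per region, and means are given ± SD over 3 libraries, except levels per kilobase, which are given as group means.

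Cells build cholesterol from acetyl-CoA through mevalonate, the isoprenoids, squalene and lanosterol. When sterols run low in the membrane of the endoplasmic reticulum, SCAP carries the SREBP proteins to the Golgi, where they are cleaved and released to switch on the enzymes of the pathway, while the INSIG proteins hold SCAP back when sterols are plentiful. In the intestine, NPC1L1 takes up cholesterol from the lumen at the apical membrane, SOAT2 (also called ACAT2, a different protein from the thiolase encoded by *Acat2*) turns it into cholesteryl ester for lipoproteins, the pair ABCG5 and ABCG8 pumps sterols back to the lumen, and ABCA1 passes cholesterol to apolipoproteins at the basolateral side. The liver X receptors, of which *Nr1h3* encodes the alpha form, are activated by oxysterols and switch on the efflux genes.

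The regions upstream of the starts are shown for the genes in which the letters of the sterol regulatory element were found, and for the *Abcg5* and *Abcg8* pair. Of the 31 genes, 25 were matched by symbol to RefSeq promoter windows on GRCm38.p6, with 35 windows in all, each of 300 bases, from 250 before to 50 after a start. The letters TCACNCCA, the core of the element bound by SREBP proteins, were searched on both strands and stood in 3 of the 35 windows (8.57%), against 4.36% of all 32851 windows. The windows that held them were those of *Hmgcs1*, *Msmo1* and *Srebf2*, where the match began 137, 177 and 162 bases before the start. The 250 bases upstream of *Hmgcs1* lie at chr13:119690101-119690350 on the plus strand, the *Msmo1* site at chr8:64733728-64733775 on the minus strand, and the *Srebf2* site at chr15:82147087-82147134 on the plus strand. In these 3 sequences the capitals mark TCACNCCA and, in *Hmgcs1* only, also ATTGG, which is CCAAT on the other strand.
Hmgcs1: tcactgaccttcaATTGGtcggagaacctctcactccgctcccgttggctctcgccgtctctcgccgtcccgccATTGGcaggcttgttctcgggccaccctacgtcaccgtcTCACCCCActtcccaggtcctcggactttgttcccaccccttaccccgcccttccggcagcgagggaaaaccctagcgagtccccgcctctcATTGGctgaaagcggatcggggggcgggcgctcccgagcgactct
Msmo1: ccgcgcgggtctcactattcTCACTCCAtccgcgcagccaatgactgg
Srebf2: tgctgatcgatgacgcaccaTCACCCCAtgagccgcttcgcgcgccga
The genes *Abcg5* (minus strand) and *Abcg8* (plus strand) lie on opposite strands. RefSeq gives 2 starts of *Abcg8*, 1 of them inside *Abcg5*, and the 109 bases between the *Abcg5* start and the other *Abcg8* start, at chr17:84683012-84683120, are printed on the plus strand with TTATCT, which is AGATAA on the other strand, in capitals.
Abcg5-Abcg8: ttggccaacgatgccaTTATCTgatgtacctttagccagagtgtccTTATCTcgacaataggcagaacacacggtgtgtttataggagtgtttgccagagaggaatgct

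CCAAT, bound by NF-Y, was present in 37.4% of all windows, in 9 of 11 windows of the genes from squalene to cholesterol in 5 of 7 windows of the precursor steps, in 5 of 12 of the sensing genes and in 3 of 5 of the uptake and efflux genes. GGGCGG, bound by SP1, was present in 35.7% of all windows, and in 10 of 11, 5 of 7, 8 of 12 and 1 of 5 windows of these groups. The DR4 repeat of the liver X receptors (0.0639% of all windows) and CAAAGTCCA of HNF4 (0.475%) were in none of the 35 windows, which says only that these letters were not in these bases. The letters AGATAA, known as a GATA factor site and searched after the *Abcg5* and *Abcg8* sequence had been seen, stood in 11.2% of all windows and in 3 of the 35 member windows (8.57%), and occurred 2 times in the stretch printed for that pair. Motifs were counted separately where they overlapped. These matches are descriptions of sequence and were not tested against the values below.

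**Figure D1:**
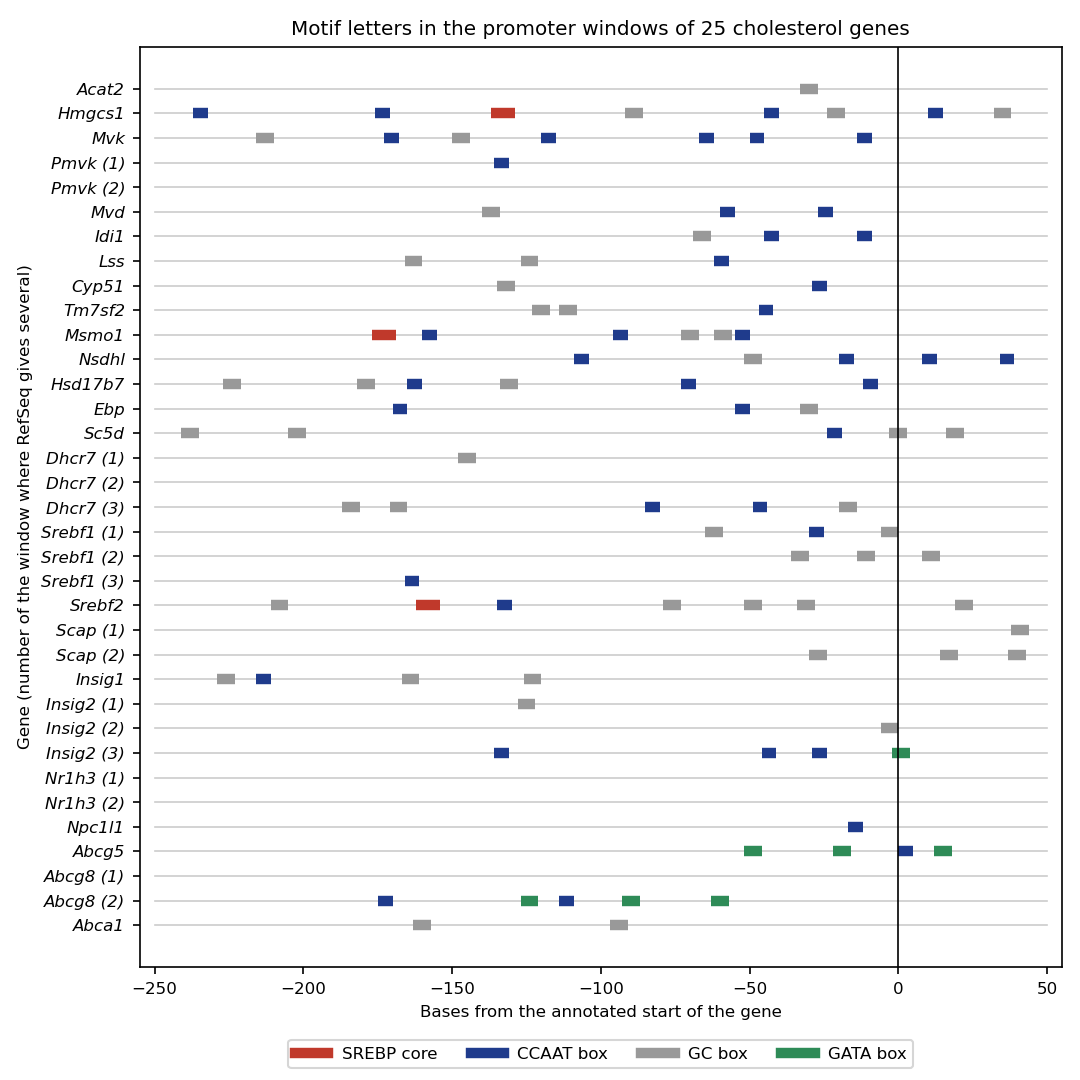
Each line is a promoter window of 300 bases, drawn by distance from the annotated start (x axis, in bases), and coloured blocks mark the letters of 4 motifs on either strand. TCACNCCA (SREBP core, red) is seen in *Hmgcs1*, *Msmo1* and *Srebf2* alone, while CCAAT (blue) and GGGCGG (grey) recur in the enzymes from *Lss* to *Sc5d*.

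Libraries held 7458616 to 23063124 reads on genes, of which mitochondrial genes took 32.3% to 80.7%. The mitochondrial share was lower in every positive than in any negative library of the small intestine, at 32.3% to 46.6% against 64.6% to 76.4% in the duodenum, 47.1% to 60.6% against 61.2% to 78.8% in the jejunum and 41.0% to 55.4% against 64.7% to 70.9% in the ileum. In the colon it was 68.6% to 77.9% against 65.3% to 80.7%. Levels are given in normalised CPM, the share of a library's reads that fell on a gene after TMM scaling of the library's size. *Guca2a* was at least at 104 CPM in positive and at most at 120 CPM in negative libraries, and was higher in every positive library than in any negative library of its region. The cell types in the 2 sorts differed between regions. The summed level of 12 enterocyte markers was 19601 to 24418 CPM in jejunum positive against 1985 to 2627 CPM in jejunum negative cells, and 5741 to 11463 CPM against 483 to 920 CPM in the ileum, with 12 of 12 markers higher in positive cells in both. In the duodenum it was 1907 to 4169 CPM against 1584 to 2282 CPM, with 3 of 12 higher and 2 lower, and in the colon 635 to 839 CPM against 240 to 276 CPM, with 5 of 12 higher. The 8 goblet cell markers were higher in positive cells of all 4 regions (8 of 8), with sums of 53013 to 60457 CPM against 310 to 434 CPM in the duodenum, 1907 to 4907 CPM against 296 to 455 CPM in the jejunum, 4387 to 10090 CPM against 306 to 389 CPM in the ileum and 4068 to 4978 CPM against 926 to 1848 CPM in the colon. The 6 Paneth cell markers were higher (6 of 6) in the 3 parts of the small intestine, with 22151 to 52958 CPM against 194 to 746 CPM in the duodenum, 1541 to 16118 CPM against 289 to 795 CPM in the jejunum and 4072 to 9629 CPM against 233 to 430 CPM in the ileum. Enteroendocrine markers were lower in positive cells (8, 9, 7 and 5 of 9 from duodenum to colon), with 35.9 to 63.6 CPM against 399 to 1623 CPM in the jejunum. Tuft cell markers were lower in the small intestine (3, 4 and 4 of 4 tested). Of the 6 colonocyte markers 5 were higher in colon positive cells, at 1505 to 1699 CPM against 112 to 277 CPM. The 8 stem and cycling cell markers summed to 39.4 to 311 CPM in jejunum positive against 1567 to 2531 CPM in negative cells, with 8 of 8 lower, and to 123 to 233 CPM against 1131 to 3761 CPM in the ileum, also with 8 of 8 lower. In the duodenum they summed to 505 to 1020 CPM against 1741 to 2391 CPM, with 4 of 8 lower. In the colon the sums were 60.5 to 73.5 CPM against 137 to 266 CPM, with 5 of 8 lower. Immune markers summed to at most 11.3 CPM and stromal and endothelial markers to at most 18.8 CPM in any library. These marker levels and the mitochondrial share move with the sort, and their part in the results below was not tested. Fewer cells of a type that makes a transcript and less of that transcript per cell cannot be told apart in such libraries.

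The jejunum libraries carrying the sequencing index D502 (replicate 3 of each sort) stood above the other jejunum libraries in the synthesis genes. The 18 synthesis enzymes summed to 159, 108 and 274 CPM in jejunum positive libraries 1, 2 and 3, and to 142, 167 and 430 CPM in the negative libraries. By this sum, in which abundant genes weigh most, the jejunum sorts overlapped, although 15 of the 18 enzymes had a negative log2 fold change. The ileum sorts did not, with 556 to 998 CPM in positive and 167 to 343 CPM in negative libraries. Nor did those of the duodenum, with 494, 403 and 460 CPM against 195, 265 and 300 CPM, while in the colon the sums were 299, 215 and 345 CPM against 185, 205 and 307 CPM, which overlapped. Replicate 3 had the highest sum in every group except duodenum positive cells, so that order was not particular to the jejunum. It also had the highest sum of stem and cycling cell markers in every group except colon negative cells. D502 was carried by replicate 2 of the ileum and colon as well. The 2 jejunum libraries with D502 also stood apart in cell markers. Jejunum positive replicate 3 had 16118 CPM of Paneth cell markers (5494 and 1541 CPM in replicates 1 and 2) and 311 CPM of stem and cycling cell markers (64.2 and 39.4 CPM). Jejunum negative replicate 3 had 399 CPM of enteroendocrine markers (1470 and 1623 CPM) and 170 CPM of colonocyte markers (58.8 and 60.0 CPM). Counts of calls in the main comparisons with the jejunum are also given below without these 2 libraries, and genes whose jejunum call was lost without them are named.

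The first question was whether cells with high Venus fluorescence differed in cholesterol genes from the cells without fluorescence of their region. In the jejunum, 6 of the 7 genes of uptake, transport, storage and efflux were higher in positive cells, and 8 of the 18 synthesis enzymes were lower and 1 higher. In the ileum 8 of the 18 synthesis enzymes and 6 of the 7 uptake, transport and efflux genes were higher, and no member was lower. Few members passed the test in the duodenum and a single one, *Npc1l1*, in the colon. At an adjusted p of 0.05 by edgeR's quasi-likelihood test, 3 of the 31 genes were higher and 1 lower in the duodenum, where 8.88% of all genes tested were higher and 8.08% lower. In the jejunum 8 were higher and 10 lower, against 18.3% and 25.6% of all genes (43.9% in either direction). In the ileum 18 were higher and none lower, against 17.9% and 20.6% (38.5%). In the colon 1 was higher and none lower, against 9.31% and 3.80% (13.1%). The median log2 fold change of the 31 genes was 0.44 (duodenum), -0.70 (jejunum), 1.13 (ileum) and 0.32 (colon), where all genes had medians of -0.16, -0.28, -0.27 and 0.00. Counted by libraries that did not overlap between the sorts, 13 members were higher and 2 lower in the duodenum (16.2% and 21.0% of all genes), 9 and 7 in the jejunum (22.6% and 29.9%), 22 and 0 in the ileum (23.2% and 30.1%), and 3 and 1 in the colon (19.1% and 11.9%).

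The jejunum calls were of unequal firmness. The higher calls numbered 8 or 9 whichever jejunum library was left out. The lower calls fell from 10 to none without positive replicate 2, to 1 without negative replicate 3 and to 4 without positive replicate 1, and were 5 when both libraries with index D502 were left out. With scaling by library size alone there were 9 higher and 5 lower, and with DESeq2 or its size factors 9 higher and 7 lower. With the i5 index as a covariate there were 8 higher and 12 lower. The duodenum count was also sensitive, with 9 higher and none lower under library size alone. That scaling raised the median log2 fold change of all genes in the duodenum and jejunum too, as given at the end. Shares of all genes are given for the main setting only. Leaving out 1 ileum library gave 13 to 18 members, all higher.

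**Figure D2:**
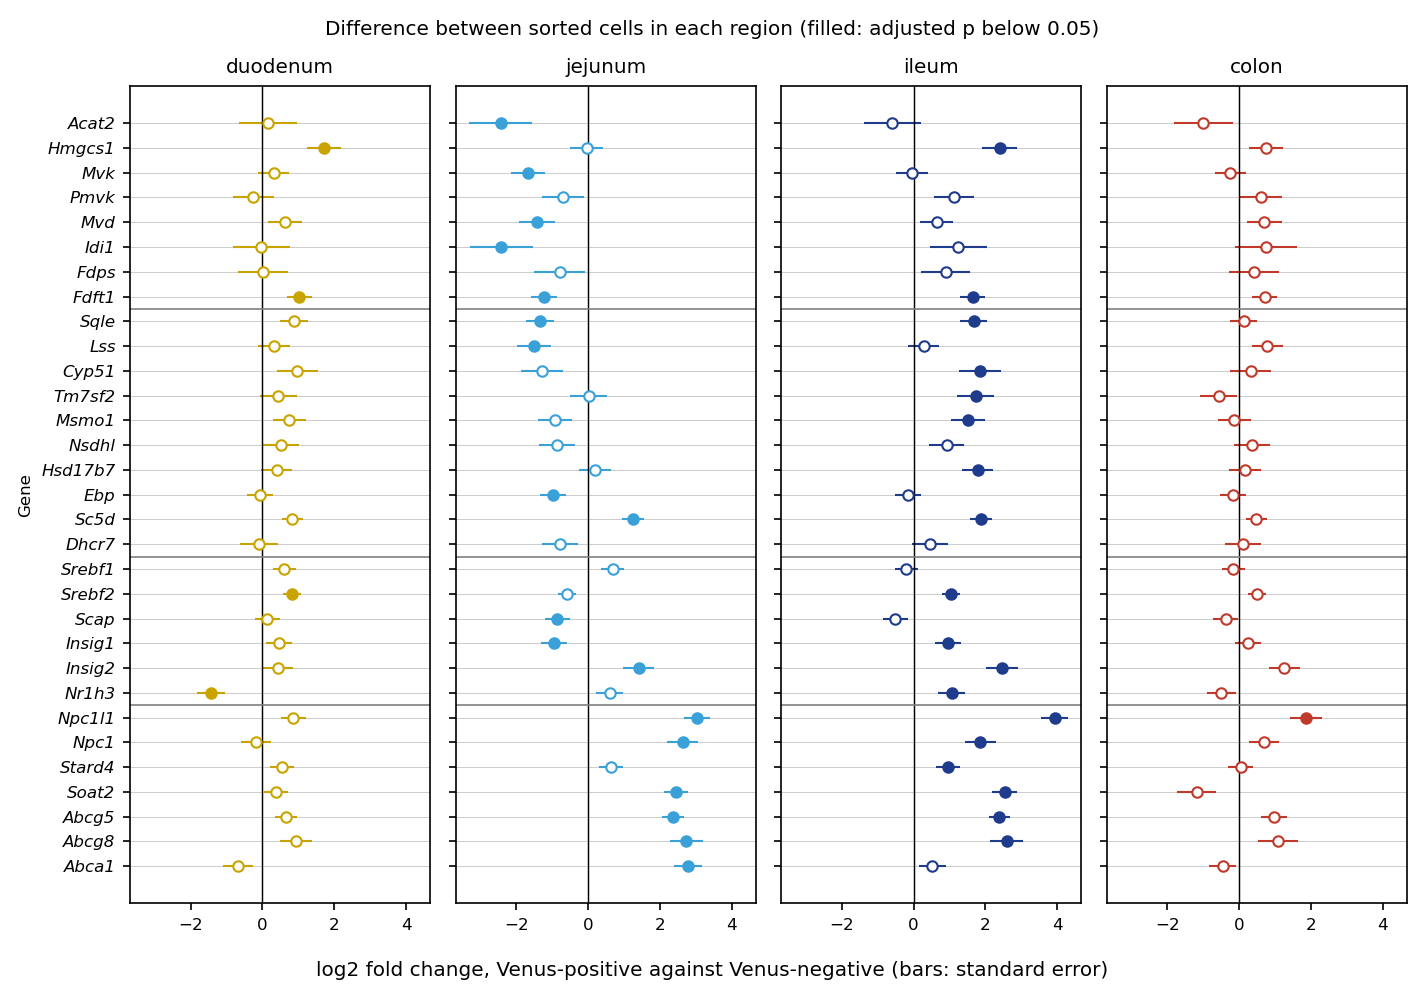
Points are log2 fold changes of positive against negative cells (x axis) with standard errors as bars for the 31 genes (y axis, in 4 groups by role) in each region, filled where the adjusted p was below 0.05. The uptake and efflux genes at the bottom lie to the right in both jejunum and ileum, whereas the synthesis genes at the top lie mostly left of 0 in the jejunum (15 of 18) and right of 0 in the ileum (15 of 18).

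Of the 8 enzymes up to squalene, 2 were higher in the duodenum (8.88% of all genes), 5 were lower in the jejunum (25.6%), 2 were higher in the ileum (17.9%) and none passed in the colon. *Hmgcs1*, which encodes the cytosolic HMG-CoA synthase and carries the TCACNCCA site printed above, stood at 174, 101 and 128 CPM in duodenum positive libraries and at 31.9, 33.7 and 57.5 CPM in negative libraries. In the ileum it stood at 182, 205 and 344 CPM against 30.6, 39.0 and 69.3 CPM. The sorts did not overlap in either region. *Hmgcs1* was 3.28-fold higher in the duodenum (log2 fold change 1.71 ± 0.48 SE, adjusted p = 0.0136) and 5.27-fold higher in the ileum (2.40 ± 0.49, adjusted p = 0.000272). In the jejunum its libraries overlapped completely, at 33.9, 20 and 72.3 CPM against 19.2, 22.5 and 88 CPM (log2 fold change -0.04 ± 0.47 SE, adjusted p = 0.955). The duodenum call was lost when duodenum positive replicate 1 or negative replicate 1 or 2 was left out.

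*Fdft1* encodes squalene synthase, which commits the pathway to sterols. Its level was 33.4, 30.7 and 36.2 CPM in duodenum positive and 15.7, 14.7 and 18.9 CPM in negative libraries. In the jejunum the positive libraries had 4.92, 5.02 and 10.1 CPM and the negative libraries 9.03, 9.78 and 27.6 CPM. In the ileum the values were 46.7, 62.7 and 75.6 CPM against 16.1, 19.2 and 23.6 CPM. Positive cells were thus above negative cells in every library of the duodenum and ileum, and mostly below in the jejunum, where positive replicate 3 fell among the negative libraries. The log2 fold change was 1.02 ± 0.35 SE in the duodenum (adjusted p = 0.0435), -1.22 ± 0.36 in the jejunum (adjusted p = 0.00692) and 1.65 ± 0.35 in the ileum (adjusted p = 0.000448). The duodenum call was lost whichever of its 6 libraries was left out, and the jejunum call without positive replicate 2 or negative replicate 3 and with the compared groups alone. *Fdft1* shares 774 exon bases with *Ctsb* on the opposite strand, and since the strand setting of the counting was not given in the sources used here, reads from those bases cannot be assigned with certainty.

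The remaining precursor enzymes had few reads, and 4 of the 6 were lower in jejunum positive cells. *Mvk*, mevalonate kinase, was at 2.17, 1.06 and 2.84 CPM in jejunum positive and 7.13, 4.18 and 7.92 CPM in negative libraries, which did not overlap (log2 fold change -1.67 ± 0.46 SE, adjusted p = 0.00403). *Mvd*, which makes isopentenyl diphosphate, was at 1.47, 2.23 and 2.41 CPM against 3.57, 4.89 and 7.92 CPM (-1.42 ± 0.49, adjusted p = 0.0199). *Acat2*, the cytosolic thiolase that condenses acetyl-CoA, and *Idi1*, which isomerises isopentenyl diphosphate, had few reads. *Acat2* was at 0.256, 0.335 and 0.948 CPM against 2.20, 1.61 and 4.48 CPM (-2.43 ± 0.87, adjusted p = 0.0240), from 4 to 13 reads in the positive libraries. *Idi1* was at 0.447, 0.112 and 0.510 CPM against 1.52, 1.74 and 2.42 CPM (-2.41 ± 0.87, adjusted p = 0.0255), from 2 to 7 reads. All 4 calls were lost without jejunum positive replicate 2, and those of *Mvd*, *Acat2* and *Idi1* also without both D502 libraries. These 3 were lost without positive replicate 1 or negative replicate 3 as well. *Mvd* and *Idi1* were also lost under library size alone, and *Mvd* without a filter on low counts. *Pmvk*, phosphomevalonate kinase, and *Fdps*, farnesyl diphosphate synthase, passed in no region when the sorts were compared, with log2 fold changes from -0.70 to 1.13 and from -0.79 to 0.89.

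Among the 10 enzymes from squalene to cholesterol, none passed in the duodenum or colon, 3 were lower and 1 higher in the jejunum (25.6% and 18.3% of all genes), and 6 were higher in the ileum (17.9%). *Sqle*, the squalene epoxidase that is a control point of the pathway, was at 3.96, 5.47 and 14.7 CPM in jejunum positive and at 12.0, 20.4 and 28 CPM in negative libraries. In the ileum it was at 54.6, 82.3 and 101 CPM against 14.2, 30.8 and 29.5 CPM. The sorts overlapped in the jejunum by 1 library and were apart in the ileum. *Sqle* was 2.52-fold lower in jejunum positive cells (log2 fold change -1.33 ± 0.39 SE, adjusted p = 0.00625) and 3.19-fold higher in ileum positive cells (1.67 ± 0.38, adjusted p = 0.000880). The jejunum call was lost when positive replicate 1 or 2 or negative replicate 3 was left out.

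*Cyp51*, the lanosterol 14-alpha-demethylase, and *Msmo1*, the sterol C4-methyl oxidase with a TCACNCCA site, passed in the ileum. *Cyp51* was at 69.4, 89.3 and 142 CPM in ileum positive and at 16.3, 18.9 and 48.2 CPM in negative libraries (log2 fold change 1.85 ± 0.58 SE, adjusted p = 0.0115). *Msmo1* was at 62.0, 92.3 and 125 CPM against 17.1, 23.5 and 57.6 CPM (1.51 ± 0.47, adjusted p = 0.0122). For both, every ileum positive library lay above every negative one, and both calls were lost without ileum positive replicate 3 or negative replicate 1 or 2. In the jejunum *Cyp51* ranged from 2.84 to 23.9 CPM in positive and from 10.9 to 56.5 CPM in negative libraries, a difference that did not pass (-1.27 ± 0.58, adjusted p = 0.0748). The difference did pass under 3 of 9 alternative settings and in 3 of 6 fits without 1 library. In the duodenum all positive libraries lay above all negative ones for both genes, without passing (*Cyp51* 0.96 ± 0.57, adjusted p = 0.253, and *Msmo1* 0.75 ± 0.47, adjusted p = 0.282). Both passed there when the compared groups were fitted alone. The difference between the sorts was not shown to differ between duodenum and ileum for either gene.

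*Sc5d*, the sterol C5-desaturase, was the synthesis enzyme that was higher in the jejunum. It stood at 50, 33.6 and 58.9 CPM in jejunum positive against 15.7, 14.2 and 29.8 CPM in negative libraries, and at 41.1, 47.8 and 67.5 CPM against 12.6, 12.5 and 17.5 CPM in the ileum. No positive library overlapped a negative one in either region. The rise was 2.39-fold in the jejunum (adjusted p = 0.00111) and 3.68-fold in the ileum (adjusted p = 1.62e-05). In the duodenum *Sc5d* was at 23.6, 24.9 and 25.9 CPM against 10.9, 17.8 and 13.2 CPM, which narrowly missed the threshold (log2 fold change 0.83 ± 0.30 SE, adjusted p = 0.0567) and passed it under 7 of 8 alternative settings.

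*Hsd17b7*, the 3-ketosteroid reductase, and *Tm7sf2*, a sterol C14-reductase, were also higher in the ileum, by 3.44-fold (adjusted p = 0.00184) and 3.32-fold (adjusted p = 0.00774). *Tm7sf2* shares 532 exon bases with *Vps51* on the same strand. In contrast, *Lss*, which cyclises epoxidised squalene to lanosterol, and *Ebp*, the sterol isomerase, were lower in jejunum positive cells. *Lss* was at 1.92, 0.614 and 4.08 CPM against 3.87, 4.37 and 10.3 CPM (log2 fold change -1.51 ± 0.47 SE, adjusted p = 0.00951), and *Ebp* at 8.88, 8.70 and 17.1 CPM against 15.1, 16.9 and 35.6 CPM (-0.97 ± 0.37, adjusted p = 0.0325). In both genes positive replicate 3 overlapped the negative libraries, and both calls were lost without positive replicate 2 or negative replicate 3. The *Lss* call was also lost with the compared groups alone. The *Ebp* call was also lost without positive replicate 1 and under 6 of 9 alternative settings, among them DESeq2 and the omission of both D502 libraries. *Nsdhl*, the C4-decarboxylase, and *Dhcr7*, which performs a last reduction, passed in no region.

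**Figure D3:**
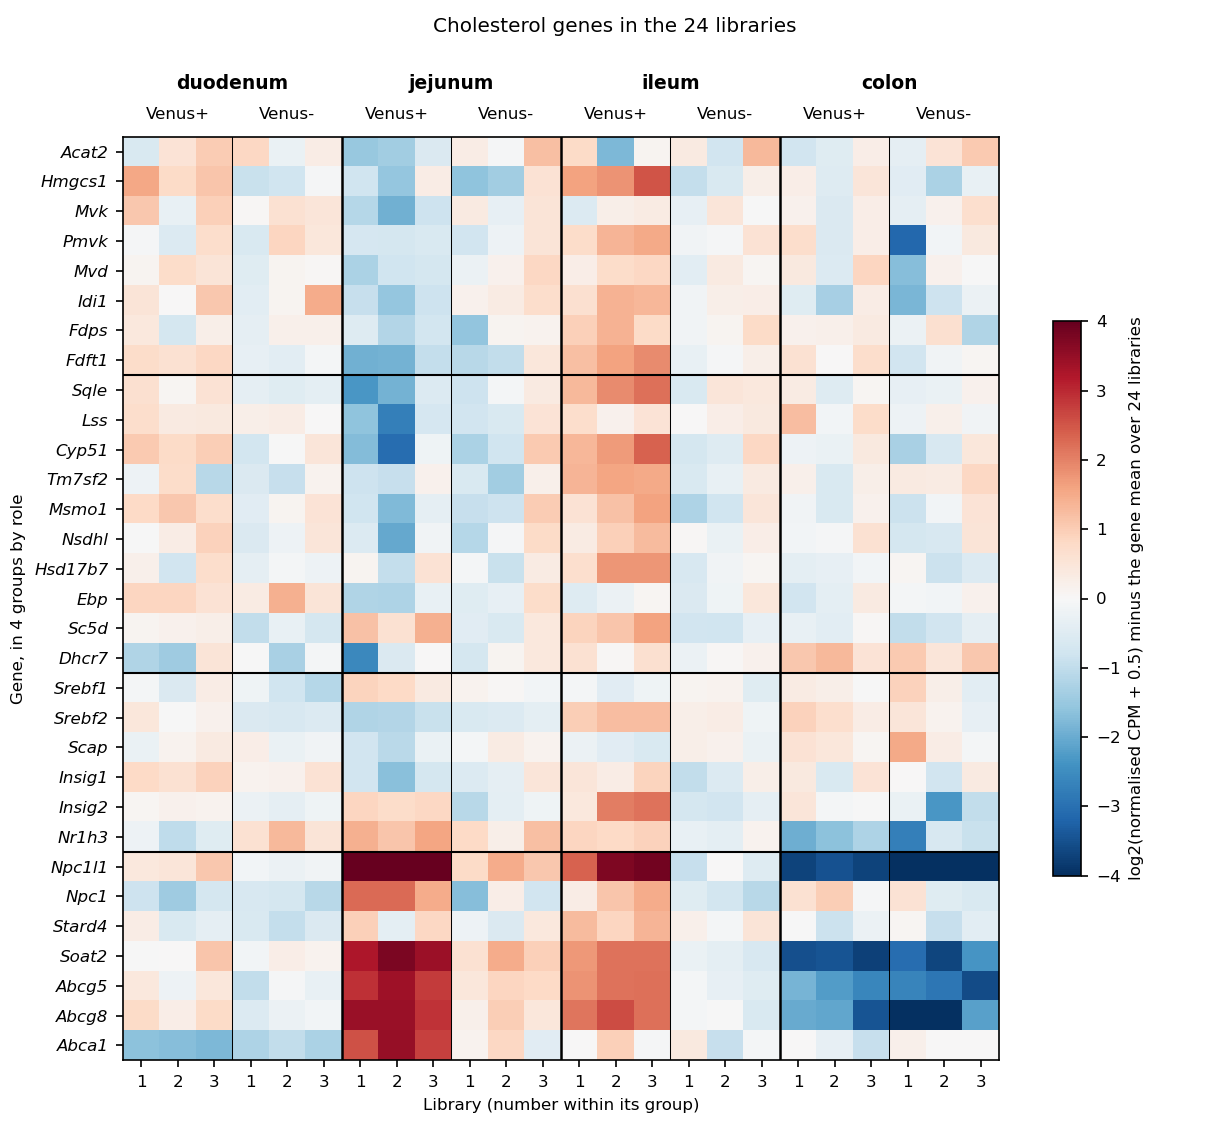
Rows are the 31 genes in 4 groups by role and columns the 24 libraries; colour is log2(normalised CPM + 0.5) minus the mean of the gene over all libraries, and values beyond 4 in either direction share the end colours. Rows such as *Fdft1*, *Sqle* and *Srebf2* are blue in jejunum positive and red in ileum positive libraries, while *Sc5d* is red in both, and *Npc1l1*, *Soat2*, *Abcg5* and *Abcg8* are red in both and blue in the colon.

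Of the 6 genes of sterol sensing and transcription, 1 was higher and 1 lower in the duodenum, 1 higher and 2 lower in the jejunum, 4 higher in the ileum, and none passed in the colon, to be read against the shares of all genes (8.88% higher and 8.08% lower in the duodenum, 18.3% and 25.6% in the jejunum, 17.9% higher in the ileum). *Srebf2*, which encodes the SREBP that chiefly drives cholesterol synthesis, was at 54.2, 38.5 and 44.2 CPM in duodenum positive and 26.3, 25.2 and 26.4 CPM in negative libraries. In the ileum it was at 78.2, 93.6 and 92.9 CPM against 45.8, 48.2 and 35.0 CPM. The sorts were apart in both regions, with log2 fold changes of 0.81 ± 0.25 SE (adjusted p = 0.0231) and 1.04 ± 0.25 (adjusted p = 0.00135). The duodenum call was lost in 4 of 6 fits without 1 library, and the ileum call in none. Without a filter on low counts the duodenum call was lost too. In the jejunum all positive libraries, at 16.9, 17.1 and 20.7 CPM, lay below all negative libraries, at 25.3, 26.6 and 29.8 CPM, but the difference did not pass (-0.58 ± 0.25, adjusted p = 0.0598). Under 2 of 9 alternative settings it passed. *Srebf1*, whose product acts more on fatty acid genes, passed in no region, with log2 fold changes from -0.20 to 0.69, the latter in the jejunum, where it passed under 5 of 9 alternative settings.

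The 2 *Insig* genes had different patterns. *Insig1*, itself a target of SREBP, was at 11.2, 5.74 and 11.8 CPM in jejunum positive and 13.1, 14.9 and 27.5 CPM in negative libraries, and at 27.0, 24 and 36.1 CPM against 9.45, 13.0 and 22.6 CPM in the ileum. It was 1.93-fold lower in the jejunum (adjusted p = 0.0367) and 1.93-fold higher in the ileum (adjusted p = 0.0378). The jejunum call was lost under 6 of 9 alternative settings, among them the omission of both D502 libraries, and without jejunum positive replicate 2 or negative replicate 3. The ileum call was lost in 4 of 6 fits without 1 library, under library size alone and with at least 10 counts in every library. *Insig2* was higher in both, at 13.5, 12.4 and 13.3 CPM against 3.04, 5.40 and 6.29 CPM in the jejunum (2.65-fold, adjusted p = 0.00880) and at 9.91, 31.5 and 34.1 CPM against 4.21, 3.99 and 5.49 CPM in the ileum (5.52-fold, adjusted p = 5.10e-05). *Scap* was at 6.14, 4.74 and 8.75 CPM against 10.2, 13.4 and 11.7 CPM in the jejunum (-0.86 ± 0.35 log2, adjusted p = 0.0487), a call that was lost under 6 of 9 alternative settings and in 5 of 6 fits without 1 library.

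*Nr1h3*, the gene of liver X receptor alpha, went in opposite directions in the duodenum and ileum. It was at 9.22, 5.09 and 7.54 CPM in duodenum positive against 16.6, 27.0 and 15.7 CPM in negative libraries, and at 20.1, 18.9 and 20.8 CPM against 8.66, 8.08 and 12.0 CPM in the ileum. No library overlapped the other sort in either region. The fall in the duodenum was 2.72-fold (adjusted p = 0.0105) and the rise in the ileum 2.09-fold (adjusted p = 0.0267). The duodenum call was lost under scaling by library size alone, and without duodenum positive replicate 2 or negative replicate 2. The ileum call was lost without ileum positive replicate 1 or 3 or negative replicate 1 or 2.

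Of the 7 genes of uptake, transport, storage and efflux, none passed in the duodenum, 6 were higher in the jejunum (18.3% of all genes), 6 were higher in the ileum (17.9%) and 1 was higher in the colon (9.31%). *Npc1l1*, the apical cholesterol transporter (chr11:6211013-6230143, minus strand), was at 758, 604 and 675 CPM in jejunum positive and 63.9, 105 and 79.5 CPM in negative libraries. In the ileum it was at 192, 506 and 552 CPM against 19.3, 37.5 and 25.9 CPM. These libraries were far apart, with an 8.19-fold difference in the jejunum (log2 fold change 3.03 ± 0.36 SE, adjusted p = 2.00e-07) and a 15.1-fold difference in the ileum (3.92 ± 0.37, adjusted p = 1.81e-08). In the colon it was much lower, at 2.40, 2.90 and 2.39 CPM in positive and 1.2, 0.659 and 0.340 CPM in negative libraries, from 31 to 41 and from 4 to 10 reads. The colon sorts still did not overlap (3.63-fold, adjusted p = 0.00553), but the call was lost with the compared groups alone, and the gene was not tested where at least 10 counts were asked of every library. In the duodenum *Npc1l1* was at 49.6, 52.0 and 79.0 CPM against 34.2, 31.2 and 33.9 CPM and did not pass (0.86 ± 0.34, adjusted p = 0.0767), but passed under 4 of 7 alternative settings.

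*Soat2*, whose enzyme esterifies absorbed cholesterol (chr15:102150526-102163469, plus strand), was at 94.3, 136 and 107 CPM in jejunum positive against 15, 27.7 and 19.1 CPM in negative libraries. In the ileum it was at 33.3, 44.6 and 44.9 CPM against 7.92, 7.23 and 5.99 CPM. Positive libraries were above negative ones throughout, by 5.44-fold in the jejunum (adjusted p = 1.47e-06) and 5.79-fold in the ileum (adjusted p = 1.39e-06). In the colon *Soat2* had only 4 to 17 reads per library, and the sorts overlapped.

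The efflux pair *Abcg5* and *Abcg8* has the upstream bases printed above between the *Abcg5* start and 1 of 2 *Abcg8* starts, and shares 82 bases of exon. *Abcg5* was at 130, 180 and 121 CPM in jejunum positive and 23.1, 30.9 and 29.5 CPM in negative libraries, and at 59.3, 77.3 and 79.2 CPM against 15.8, 13.3 and 12.0 CPM in the ileum. *Abcg8* was at 177, 174 and 119 CPM against 17.8, 31.5 and 21.4 CPM, and at 70.7, 97.4 and 73.3 CPM against 14.7, 15.3 and 9.98 CPM. Both were higher in every positive library of the 2 regions. The differences of *Abcg5* and *Abcg8* were 5.17-fold and 6.64-fold in the jejunum (adjusted p = 4.86e-07 and 2.15e-05) and 5.24-fold and 6.03-fold in the ileum (adjusted p = 5.72e-07 and 5.04e-05). In the colon *Abcg5* was at 4.25, 3.19 and 2.32 CPM against 2.28, 1.83 and 0.935 CPM, which did not pass (log2 fold change 0.97, adjusted p = 0.0654).

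*Abca1*, the basolateral cholesterol exporter (chr4:53030787-53159895, minus strand), passed in the jejunum. It was at 45.6, 88.6 and 52.9 CPM in jejunum positive against 8.2, 13.7 and 5.32 CPM in negative libraries (6.87-fold, adjusted p = 1.73e-06). In the ileum the sorts overlapped, at 7.54, 15 and 7.13 CPM against 9.94, 3.74 and 7.10 CPM (log2 fold change 0.52 ± 0.37 SE, adjusted p = 0.283), although the difference between the 2 regions did not pass either. *Npc1*, which releases cholesterol from lysosomes, was at 64.6, 65.1 and 37.6 CPM against 3.64, 15.7 and 7.50 CPM in the jejunum (6.22-fold, adjusted p = 1.28e-05) and at 16.2, 28.8 and 37.6 CPM against 9.16, 7.72 and 5.76 CPM in the ileum (3.63-fold, adjusted p = 0.000716). The sorts were apart in both. *Stard4*, a sterol carrier of the cytosol, was higher in the ileum, at 123, 93.4 and 132 CPM against 58.3, 47.8 and 72.7 CPM (1.95-fold, adjusted p = 0.0262). The *Stard4* call was lost without any of the ileum libraries positive 1, positive 3, negative 1 and negative 2. It was also lost under library size alone and with at least 10 counts in every library. *Npc1* shares 511 exon bases with *Rmc1* on the opposite strand.

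**Figure D4:**
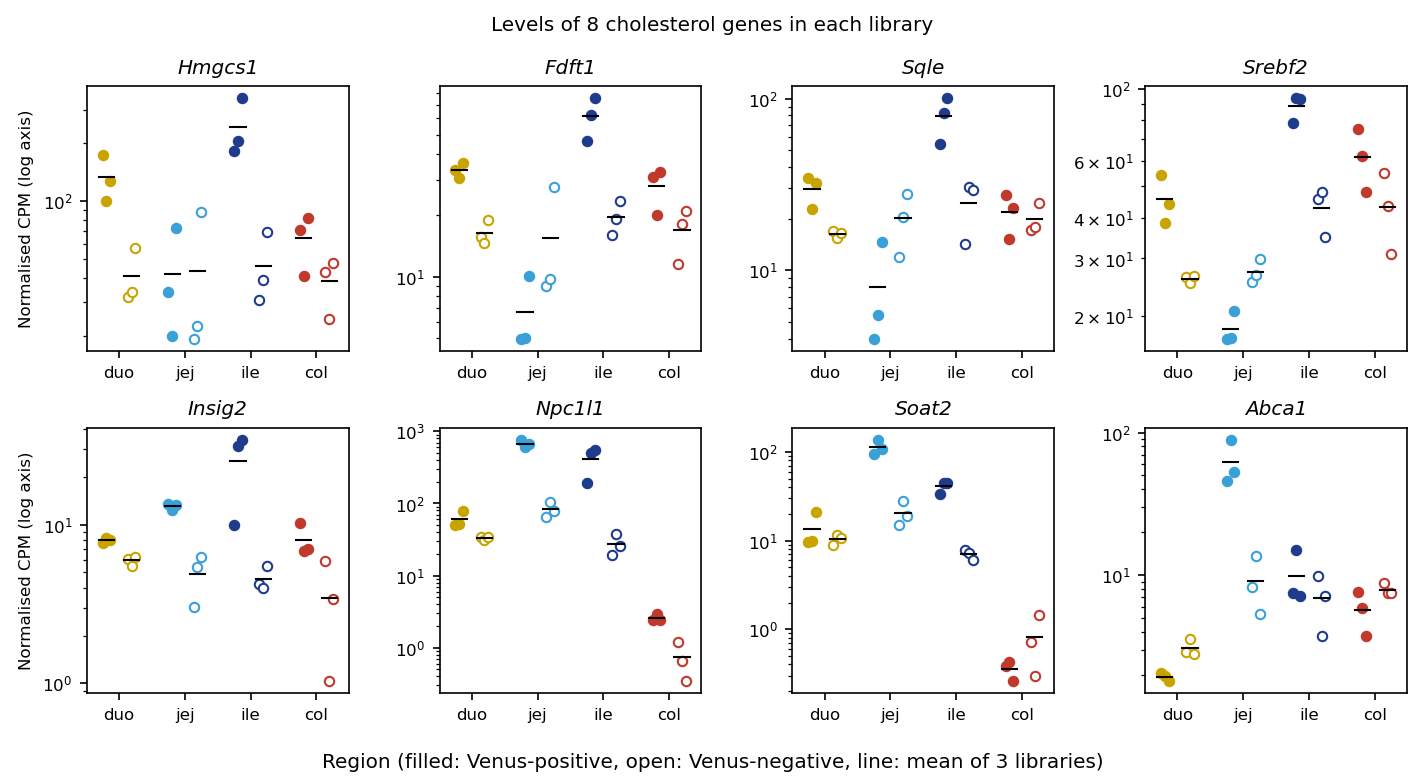
Each panel shows 1 gene in normalised CPM on a log axis (y axis) in the 4 regions (x axis; duo, jej, ile and col for duodenum, jejunum, ileum and colon), with a point per library, filled for positive and open for negative cells, and a line at the mean of 3 libraries. *Npc1l1* and *Soat2* are high in positive cells of both jejunum and ileum, *Fdft1*, *Sqle* and *Srebf2* are lowest in jejunum positive and highest in ileum positive cells, and *Abca1* is high in jejunum positive cells.

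Higher in positive cells of both jejunum and ileum were *Sc5d*, *Insig2*, *Npc1l1*, *Npc1*, *Soat2*, *Abcg5* and *Abcg8*, which are 7 of the 8 higher in the jejunum and 7 of the 18 higher in the ileum. The share of all genes that were higher in both regions was not counted. Few genes of the whole table (0.266%) differed between these regions in the difference between the sorts. *Fdft1*, *Sqle* and *Insig1* were called lower in the jejunum and higher in the ileum. The change between these regions passed its own test, given below, for *Fdft1* and *Sqle* but not for *Insig1*. Levels per kilobase of exon allow the genes to be compared. In jejunum positive cells *Npc1l1* was at 152 CPM per kilobase, *Abcg5* at 53.0, *Soat2* at 50.8 and *Abcg8* at 41.8, while *Hmgcs1* was at 9.15 and *Fdft1* at 1.58. In ileum positive cells *Npc1l1* was at 93.3 and *Hmgcs1* at 53.1 CPM per kilobase, followed by *Abcg5* at 26.5. In duodenum positive cells *Hmgcs1*, at 29.3, stood above *Npc1l1*, at 13.5 CPM per kilobase, and in colon positive cells *Hmgcs1* was at 14.1 and *Npc1l1* at 0.574. The order of a synthesis and an absorption gene was therefore not the same in the 4 regions.

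A second question was whether the difference between the sorts itself changed along the gut, which was tested by interaction contrasts. Between duodenum and jejunum the difference was larger (more positive) in the duodenum for 5 members and smaller for 6, where 8.77% and 5.84% of all genes passed (14.6% together). The 5 were *Fdft1* (log2 difference of fold changes 2.24 ± 0.50 SE, adjusted p = 0.00320), *Sqle* (2.21 ± 0.54, adjusted p = 0.00630), *Mvk*, *Mvd* and *Srebf2*. The 6 were *Abca1* (-3.45 ± 0.57, adjusted p = 0.000203), *Npc1*, *Npc1l1*, *Soat2*, *Abcg5* and *Nr1h3*. Of the 18 synthesis enzymes 4 passed, all more positive in the duodenum. Without both D502 jejunum libraries 6 members were more positive in the duodenum and 6 less so. Between duodenum and ileum no member was more positive in the duodenum (4.58% of all genes) and 6 were less so (5.92%, and 10.5% together), namely *Npc1l1* (-3.05 ± 0.48, adjusted p = 0.000121), *Nr1h3*, *Soat2*, *Abcg5*, *Insig2* and *Npc1*. Between jejunum and ileum 3 members were less positive in the jejunum, where 0.193% of all genes passed, and none was more so (0.0731%, and 0.266% together). These were *Sqle* (-3.01 ± 0.55, adjusted p = 0.00778), *Fdft1* (-2.87 ± 0.51, adjusted p = 0.00591) and *Srebf2* (-1.61 ± 0.35, adjusted p = 0.0337). With both D502 jejunum libraries left out, 4 members were called in this comparison, all less positive in the jejunum and with these 3 among them. With 1 library left out the count ranged from 2 to 9, and with the compared groups alone fewer than 3 were called. Across the 18 synthesis enzymes the jejunum and ileum contrast was below 0 in 18 of 18, with a median of -1.81 against -0.12 for all genes. The mean difference of the 3 small intestinal regions against the colon passed for *Soat2* alone (2.96 ± 0.57, adjusted p = 0.00272; 1.38% of all genes were higher and 2.75% lower, 4.13% together), a call that rested on the few colon reads and was lost without colon negative replicate 3.

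Positive cells of neighbouring regions were also compared directly. From jejunum to ileum, where few genes changed over the whole table (2.15% higher and 3.00% lower in the jejunum, 5.15% in all), 15 of the 31 members were lower in the jejunum and 3 were higher. Of the 18 synthesis enzymes 13 were lower and all 18 had a negative log2 fold change, with a median of -2.06 against -0.04 for all genes. *Sqle* was 9.91-fold lower in jejunum than in ileum positive cells (8.03 ± 5.79 against 79.3 ± 23.3 CPM, adjusted p = 1.75e-06) and *Fdft1* 9.27-fold lower (6.67 ± 2.94 against 61.7 ± 14.5 CPM, adjusted p = 7.78e-07). *Srebf2* was 4.83-fold lower, at 18.3 ± 2.13 against 88.2 ± 8.70 CPM (adjusted p = 3.57e-07), and *Cyp51* 8.75-fold lower, at 11.5 ± 11.0 against 100 ± 37.7 CPM (adjusted p = 0.00112). *Hmgcs1*, *Pmvk*, *Mvd*, *Idi1*, *Fdps*, *Lss*, *Tm7sf2*, *Msmo1*, *Nsdhl*, *Hsd17b7* and *Insig1* were the other 11, lower by 2.86-fold (*Hsd17b7*) to 9.75-fold (*Idi1*). Over all 31 members, 17 had every jejunum positive library below every ileum positive library and 8 had every one above, against 9.95% and 9.40% of all genes. The genes that were higher in the jejunum were *Abca1* (6.29-fold, 62.3 ± 23.0 against 9.90 ± 4.44 CPM, adjusted p = 2.31e-05), *Soat2* (2.74-fold, adjusted p = 0.00498) and *Abcg5* (2.0-fold, adjusted p = 0.0383). The 15 lower calls fell to 6 without jejunum positive replicate 2, to 8 without jejunum positive replicate 1 and to 9 without ileum positive replicate 2 or 3, and numbered 15 without both D502 jejunum libraries. That omission did not balance the index, since the jejunum libraries left carried D501 and ileum positive replicates 2 and 3 carried D502.

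From duodenum to jejunum, 13 members were higher in duodenum positive cells and 8 lower, where 18.4% and 14.8% of all genes were (33.2% together). The synthesis enzymes made up 11 of the 13, with *Fdft1* 5.03-fold (adjusted p = 1.59e-05), *Lss* 4.53-fold (adjusted p = 0.000647) and *Mvk* 4.49-fold higher (adjusted p = 0.000600), and *Srebf2* (2.5-fold) and *Insig1* (3.48-fold) were the other members. The uptake and efflux genes made up 6 of the 8 lower, with *Abca1* at 1.94 ± 0.127 against 62.3 ± 23.0 CPM (32.0-fold lower, adjusted p = 3.16e-09) and *Npc1l1* at 60.2 ± 16.3 against 679 ± 77.3 CPM (11.3-fold lower, adjusted p = 4.31e-08). *Nr1h3* (3.98-fold) and *Sc5d* (1.92-fold) were lower too. Without both D502 jejunum libraries 15 members were higher in the duodenum and 9 lower, while duodenum positive replicate 3 still carried D502. From ileum to colon, 15 members were higher in ileum positive cells and none lower (10.7% and 11.0% of all genes, 21.7% together). *Npc1l1* was 162-fold higher in the ileum (417 ± 196 against 2.56 ± 0.295 CPM, adjusted p = 1.62e-12), *Soat2* 113-fold higher against 4 to 6 reads per colon library (adjusted p = 7.62e-12), *Abcg8* 31.2-fold and *Abcg5* 22.2-fold higher. Synthesis genes differed less, from *Fdft1* at 2.21-fold (adjusted p = 0.0181) to *Hmgcs1* at 3.77-fold (adjusted p = 0.00455).

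Between neighbouring regions, the members that passed in negative cells were genes of uptake and esterification, and between ileum and colon also of efflux. Between duodenum and jejunum no member passed by edgeR, where 0.306% of all genes were higher and 0.419% lower (0.725% together), although 6 members had an unadjusted p below 0.05 and DESeq2 called 3. Between jejunum and ileum *Npc1l1* (3.00-fold higher in the jejunum, 82.9 ± 20.8 against 27.6 ± 9.20 CPM, adjusted p = 0.00617) and *Soat2* (2.92-fold, adjusted p = 0.00602) were higher and none was lower, against 1.70% and 0.405% of all genes (2.11% together). Scaling by library size alone removed both of these calls, and moved the median of all genes in this comparison from 0.01 to -0.61. Between ileum and colon the 4 genes *Npc1l1* (39.0-fold), *Abcg8* (11.0-fold), *Soat2* (8.63-fold) and *Abcg5* (8.25-fold) were higher in the ileum and none was lower, against 3.02% and 2.22% of all genes (5.24% together). No synthesis enzyme passed in any of the 3 comparisons of negative cells.

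**Figure D5:**
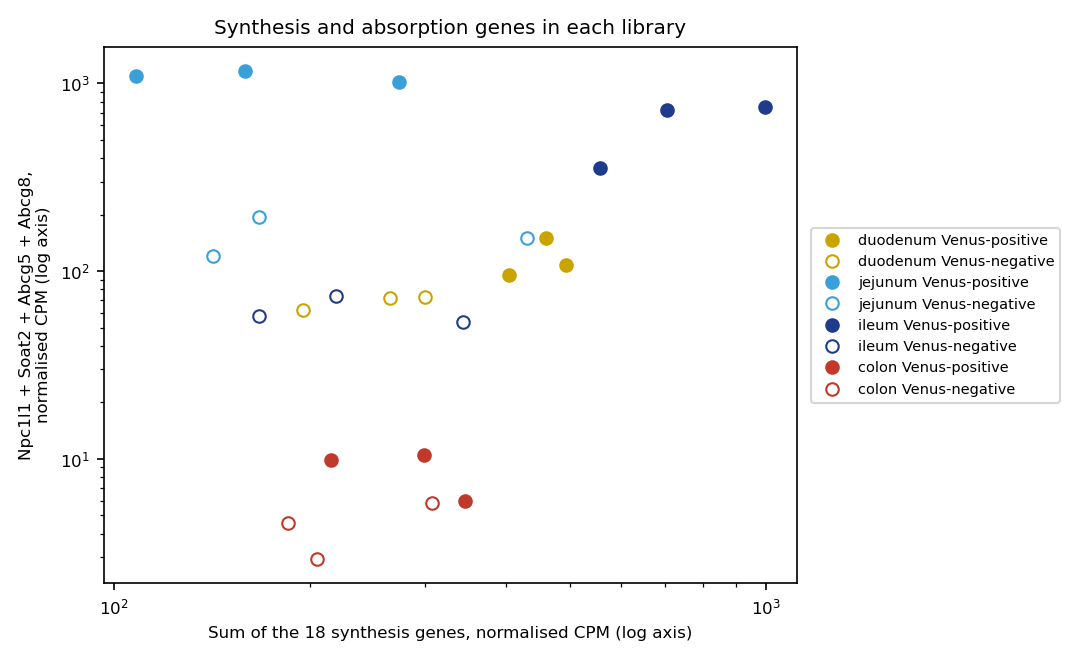
Each point is a library, filled for positive and open for negative cells and coloured by region, with the summed level of the 18 synthesis enzymes (x axis, normalised CPM, log scale) against that of *Npc1l1*, *Soat2*, *Abcg5* and *Abcg8* (y axis, normalised CPM, log scale). Jejunum positive libraries lie at the top left (108 to 274 and 1022 to 1159 CPM), ileum positive libraries at the top right (556 to 998 and 355 to 749 CPM), and colon libraries at the bottom (2.93 to 10.5 CPM on the y axis).

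Other genes of sterol metabolism, in a list of 16, had 2 higher in the duodenum (8.88% of all genes), 7 higher and 7 lower in the jejunum (18.3% and 25.6%), 6 higher and 3 lower in the ileum (17.9% and 20.6%), and 5 higher in the colon (9.31%). *Lipa*, the lysosomal acid lipase that frees cholesterol from its esters, was higher in jejunum (29.6 ± 11.3 against 3.24 ± 0.236 CPM, adjusted p = 7.26e-07), ileum (16.6 ± 6.06 against 1.59 ± 0.637 CPM, adjusted p = 5.31e-07) and colon (10.4 ± 3.81 against 1.49 ± 0.485 CPM, adjusted p = 6.73e-05). *Osbp* was higher in those 3 regions, and *Nr1h2*, the gene of liver X receptor beta, in all 3 parts of the small intestine. The 2 esterifying enzymes went opposite ways. *Soat1*, the form of most tissues, was lower in positive cells, at 2.65 ± 3.14 against 19.9 ± 4.78 CPM in the jejunum (-2.93 ± 0.49, adjusted p = 2.11e-05) and at 6.44 ± 2.44 against 26.9 ± 8.90 CPM in the ileum (-2.06 ± 0.46, adjusted p = 0.000757), where *Soat2* was higher. Of the other genes named by size of change, *Acly*, the ATP citrate lyase, was higher in the duodenum (44.9 ± 13.4 against 17 ± 6.02 CPM, adjusted p = 0.00120) and lower in the jejunum (adjusted p = 0.0296). *Nceh1*, a cholesteryl ester hydrolase, was higher in the ileum (adjusted p = 0.00456) and colon (22.6 ± 6.31 against 6.41 ± 5.29 CPM, adjusted p = 0.00643), and *Abcg1*, a sterol exporter, was lower in the jejunum (0.110 ± 0.132 against 0.916 ± 0.416 CPM, adjusted p = 0.0142). The *Abcg1* mean in jejunum positive cells lay below the level of 3 counts, the floor of detection, in those libraries (0.167 to 0.219 CPM).

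Fatty acid synthesis genes, of which 13 of 15 listed were tested, differed in direction from the sterol synthesis genes in the ileum. In the jejunum 10 were lower and none higher (25.6% and 18.3% of all genes), and in the ileum 6 were lower and 1 higher (20.6% and 17.9%). In the duodenum 1 was lower and none higher (8.08% and 8.88%), and in the colon 2 were lower and 2 higher (3.80% and 9.31%). *Fads1*, a fatty acid desaturase, was at 0.515 ± 0.458 against 8.19 ± 2.82 CPM in the jejunum (adjusted p = 3.20e-06), 1.06 ± 0.456 against 11.9 ± 0.112 CPM in the ileum (adjusted p = 9.69e-06) and 1.86 ± 0.449 against 8.71 ± 2.01 CPM in the colon (adjusted p = 0.00399). *Fads2* was lower in the same 3 regions. *Lpin1*, a phosphatidate phosphatase, was at 0.312 ± 0.329 against 5.77 ± 1.56 CPM in the jejunum (adjusted p = 6.37e-06) and 1.39 ± 0.693 against 8.30 ± 1.61 CPM in the ileum (adjusted p = 0.000585). The median log2 fold change of the 13 genes was -1.92 in the jejunum and -0.60 in the ileum, where that of the 18 sterol synthesis enzymes was -0.95 and 1.19. *Mlxipl*, a carbohydrate-responsive transcription factor, was lower in the duodenum (20.4 ± 1.18 against 43.6 ± 5.54 CPM, adjusted p = 0.0368), and *Elovl6*, an elongase, was lower in the jejunum (adjusted p = 0.0146) and higher in the colon (20.7 ± 6.33 against 5.43 ± 1.82 CPM, adjusted p = 0.000631).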

How the data were processed

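RNA of sorted cells (10 ng) was made into stranded total RNA libraries and sequenced as single 50-base reads. Per the labels, the authors aligned reads with STAR 2.5.1 to GRCm38; they deposited raw counts per gene, without normalisation. The annotation and strand setting were not given in the sources used here. The 4 summary lines (ambiguous, multimapping, outside genes and unmapped), 39.4% to 75.8% of a library, were left out. Gene names, positions and exon lengths came from GENCODE M21, which held 53360 of 53465 gene lines, and promoters from RefSeq (GRCm38.p6).

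Genes with few counts were removed by filterByExpr (at least 10, and 15 in total), and counts were normalised by TMM and tested with the quasi-likelihood test of edgeR 4.0.16 in R 4.3.3 (limma 3.58.1), in 1 model with a coefficient for each of 8 groups, with Benjamini-Hochberg adjustment over 15044 genes. CPM were computed on TMM-adjusted library sizes. All 14 comparisons were repeated with DESeq2 1.42.0, other scalings, filters, the i5 index as covariate, an adjusted p of 0.01, and each library left out. All but the small intestine against the colon were also repeated with the compared groups alone. The omission of both D502 jejunum libraries was added after seeing the data. The procedure was tested on simulated data, but no result of that is used here. Replicates differed by 23.7 to 154 chi-square per degree of freedom, so none was a duplicate. A gene at 3 counts, the floor of detection, had 0.106 to 0.360 CPM; reads carried no molecular identifiers, so it covers counting error only. Members and lists were chosen with earlier results of these data known. All members were named; of the other sterol and fatty acid lists, genes past the threshold in the same direction in at least 3 regions were named, and the 2 largest changes past it in each regional comparison, except an item that is not reported here.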

Additional observations from a re-analysis of the deposited data

Results flagged for a closer look

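The difference between positive and negative cells depended on the region in 21 tests over 12 of the 31 members, by edgeR's interaction contrasts. Of all genes, 14.6% passed between duodenum and jejunum, 10.5% between duodenum and ileum and 0.266% between jejunum and ileum. For the small intestine against the colon the share was 4.13%. Values are differences of log2 fold changes, first region minus second. Between duodenum and jejunum they were 2.24 for *Fdft1*, 2.21 for *Sqle*, 2.05 for *Mvd*, 1.98 for *Mvk* and 1.39 for *Srebf2*. In the same comparison they were -3.45 for *Abca1*, -2.82 for *Npc1*, -2.17 for *Npc1l1*, -2.08 for *Soat2*, -2.05 for *Nr1h3* and -1.72 for *Abcg5*. Between duodenum and ileum they were -3.05 for *Npc1l1*, -2.50 for *Nr1h3*, -2.17 for *Soat2*, -2.05 for *Insig2*, -2.04 for *Npc1* and -1.74 for *Abcg5*. Between jejunum and ileum they were -3.01 for *Sqle*, -2.87 for *Fdft1* and -1.61 for *Srebf2*. For the mean of the small intestine against the colon it was 2.96 for *Soat2*, which had 4 to 17 reads in each colon library. The sums of the cell type markers differed between these regions too, and their part was not tested.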

How the results depend on the processing

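No paired analysis was run, because the labels name no mouse and the replicate numbers only follow the order of the samples. Positive and negative libraries of the same region and number did share an i5 index. The mitochondrial share of positive libraries was highest in replicate 2 and lowest in replicate 3 in all 4 regions. That order held in negative libraries of the duodenum and colon only. For the lower jejunum calls whose sorts overlapped (*Fdft1*, *Sqle*, *Lss* and *Ebp*), each positive library lay below the negative one of its number. Whether pairing would change calls was not tested. In the comparisons of positive with negative cells of a region, no called member changed direction under any alternative. Counts of members past the threshold that moved by more than 1.5 times were as follows, without the shares of all genes under the same settings. In the duodenum the 4 became 9 with library size alone, 10 with the compared groups alone and 0 at an adjusted p of 0.01. In the colon the 1 became 2 without a filter, and 0 with at least 10 counts in every library or with the compared groups alone. For the sort difference of duodenum and jejunum the 11 became 17 with the i5 index, and of duodenum and ileum the 6 became 3 with library size alone. For jejunum and ileum the 3 became 6 with DESeq2, 7 without a filter, 7 with the i5 index and 1 with the compared groups alone. For the small intestine against the colon the 1 became 2 with DESeq2, library size alone, no filter or the i5 index, and 0 with at least 10 counts in every library. In positive cells of jejunum and ileum the 18 became 10 at an adjusted p of 0.01. In negative cells of duodenum and jejunum the 0 became 3 with DESeq2, 2 without a filter, 2 with the i5 index, 1 with the compared groups alone and 1 without the D502 jejunum libraries. In negative cells of jejunum and ileum the 2 became 1 with library size alone (lower, and neither of the 2) and 0 with at least 10 counts in every library, and of ileum and colon the 4 became 1 with at least 10 counts.

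With 1 library left out, the counts ranged from 0 to 3 in the duodenum, 9 to 20 in the jejunum, 13 to 18 in the ileum and 1 to 3 in the colon. They ranged from 9 to 17, 4 to 6, 2 to 9 and 0 to 2 for the sort differences of duodenum and jejunum, duodenum and ileum, jejunum and ileum, and small intestine and colon. In positive cells they ranged from 18 to 23, 8 to 19 and 11 to 15 for the 3 neighbouring pairs, and in negative cells from 0 to 1, 1 to 2 and 4 to 4. With at least 10 counts in every library *Npc1l1*, *Soat2* and *Abcg8* were no longer tested, so that the lower counts given above for that filter are not lost calls. The causes of the other changes were not tested. In the comparisons of positive with negative cells, single member results crossed the threshold in 68 of 990 cases under other alternatives and in 72 of 744 with 1 library left out. The small intestine against the colon was not run with the compared groups alone. Where an arm had 2 libraries left, the spread was still pooled over the 8 groups.

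Scaling by library size alone moved the median of all genes from -0.16 to 0.27 in the duodenum and from -0.28 to 0.02 in the jejunum. Depth limited *Idi1* (592 reads over all libraries), *Fdps* and the colon values of *Soat2*.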
